A study of Rattus norvegicus with 7 samples.

Results

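Translation initiation factors (eIFs) are the proteins that load the first tRNA and an mRNA onto the small ribosomal subunit and find the start codon. They were taken here as all probes of the array whose gene name begins with Eif and a digit from 1 to 6, a set that also holds the 4 kinases of eIF2 and the proteins that bind eIF4E. This gave 53 genes with 82 probes, of 36174 gene names with 45598 probes on the array. RNA of NR8383 cells, a line of rat alveolar macrophages, was measured on one-color arrays after 4 h with ZnO NPs (3 arrays) and in unexposed cells (4 arrays), with 1 array for each biological replicate. Per the labels the ZnO arrays hold cells given 2 µg/mL of ZnO NPs and the control arrays cells given 0 µg/mL, and the study's text states another dose for the exposed cells. All arrays came from the same cell line, which lacks the air, epithelium and surfactant of the lung, and the study's methods state that cells met the NPs in medium without serum. Of the macrophage markers looked at, 9 of 10 were well above background on all 7 arrays (Cd68, Lyz2, Cd14, Mrc1, Itgam, Csf1r, Spi1, Ctss and Tyrobp) and Marco, a scavenger receptor of alveolar macrophages, was on none. Among markers of other cells, 0 of 5 of epithelium, 2 of 5 of fibroblasts, 3 of 5 of endothelium, 2 of 5 of T cells, 1 of 4 of B cells and 2 of 5 of neutrophils were above background on all arrays.

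Initiation is the step at which cells most often set their rate of protein synthesis, and it has a pair of well-known switches. In the first, stress kinases phosphorylate the α subunit of eIF2, the carrier of the initiator tRNA, and phosphorylated eIF2 then blocks eIF2B, the factor that reloads eIF2 with GTP. In the second, hypophosphorylated 4E-binding proteins hold eIF4E, the protein that binds the mRNA cap, and release it when mTOR phosphorylates them. Both switches act on proteins by phosphorylation, and the arrays measured only the amounts of the transcripts. A macrophage relies on them when it makes cytokines or meets stress.

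The probes of this array are oligonucleotides of 60 bases, and a transcript is read through the few stretches they match. The 6 printed here lie in coding sequence and read a kinase (Eif2ak4), the eIF2 and eIF3 subunits that the results below turn on, and a subunit of eIF2B. They are given 5′ to 3′, with capitals for the whole codons and lower case for the bases left over at either end. Each position is on rn4, as the files give it, and covers an intron where it spans more bases than the probe holds.
Eif2ak4 at chr3:104905172-104906054: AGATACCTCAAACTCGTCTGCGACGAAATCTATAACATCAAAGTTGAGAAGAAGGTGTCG
Eif2s2 at chr3:145361004-145361457: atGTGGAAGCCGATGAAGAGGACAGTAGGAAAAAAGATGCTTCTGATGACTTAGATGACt
Eif2s2 at chr3:145347612-145347671: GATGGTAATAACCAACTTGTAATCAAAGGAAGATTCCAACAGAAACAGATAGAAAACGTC
Eif2b1 at chr12:33140818-33142683: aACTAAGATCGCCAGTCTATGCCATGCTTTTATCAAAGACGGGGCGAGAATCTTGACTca
Eif3j at chr3:108835714-108836926: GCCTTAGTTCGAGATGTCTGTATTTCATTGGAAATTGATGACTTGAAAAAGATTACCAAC
Eif3k at chr1:84092431-84093421: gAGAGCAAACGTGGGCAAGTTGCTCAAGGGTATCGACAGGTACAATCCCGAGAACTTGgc
No member probe shared a run of 25 bases or more with a probe of another gene name. The pair of Eif3k probes A_44_P1158035 and A_64_P089837 shared 48 bases with each other, so that they are not independent readings. The transcript of Eif4g1, the main scaffold of the cap-binding complex, is measured by a probe without a gene symbol in the files, which the rule on names leaves out. That probe gave a log2 fold change of -0.11 (standard error 0.067, 95% interval -0.27 to 0.046, adjusted p = 0.919 from limma). In all, 8 probes described as initiation factors fall outside the rule. Another of them, of a predicted gene described as like Eif4g1, gave -0.0077 (95% interval -0.35 to 0.34).

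None of the measured initiation factors differed between exposed and unexposed cells past limma's test. Tests covered probes that were well above background on every ZnO array or on every control array, which held for 78 of the 82 member probes, in 51 of the 53 genes, and for 20050 probes in all. The probe of Eif2s3y, the Y-linked copy of the eIF2 γ subunit, both probes of Eif5a2, a paralog of Eif5a, and 1 of 5 probes of Eif4g2 (A_64_P108566) were not well above background on any array, and no saturated spot was found. At an adjusted p under 0.05, 0 of the 78 member probes were higher and 0 lower after ZnO, where 10 of all 20050 probes were higher (0.0499%) and 0 were lower (0%). At an unadjusted p under 0.05 there were 3 member probes (3.85%), beside 1188 of all probes (5.93%). One of the 3, of Eif2ak3, entered the test only because the ZnO arrays, where it is high, were all above background. Over the 77 member probes well above background on all 7 arrays the count was 2 (2.6%), beside 5.86% of all such probes. Over all 78 tested member probes it was 0 with normexp background correction, the deposited table or centring on spike-in spots. The count of 3 was 1 without control replicate 2 or without ZnO replicate 3 and 5 without ZnO replicate 1. The values are relative amounts in bulk RNA, so that fewer cells with a transcript and less of it in each cell cannot be told apart.

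Log2 fold changes of ZnO over control ran from -0.19 (Eif4ebp3) to 0.59 (Eif2ak3) over the 78 member probes, with a median of -0.0013, beside a median of -0.0064 over all probes tested. Among the 77 probes above background on all arrays the highest was 0.24 (Eif3j). Of the member probes, 39 were above 0 (50%, beside 47.9% of all tested probes) and 39 below. Within 0.1 of 0 lay 59, and 76 lay within 0.2 of 0. With single arrays left out in turn, 40 of the 78 had values on both sides of 0. With centring on spike-in spots, which moved the median of all probes to 0.14, 75 of the 78 were above 0 and the members' median was 0.15. The 95% intervals reached a median of 0.19 to either side (all probes, 0.25), and for 76 of the 78 member probes (97.4%) the whole interval lay inside a 1.5-fold change either way, beside 82.7% of all probes. The exceptions were Eif1ax and 1 probe of Eif2ak3. The SD between control arrays had a median of 0.090 over the member probes and 0.13 over all probes. These sets are unlike: the 82 member probes held 247 spots, against 58717 spots for all 45598 probes. Well above background on all arrays were 77 of the 78 tested member probes, against 18997 of all 20050. Whether spots and brightness make the members' intervals narrower was not tested. The plot of fold changes by role shows these intervals.

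**Figure D1:**
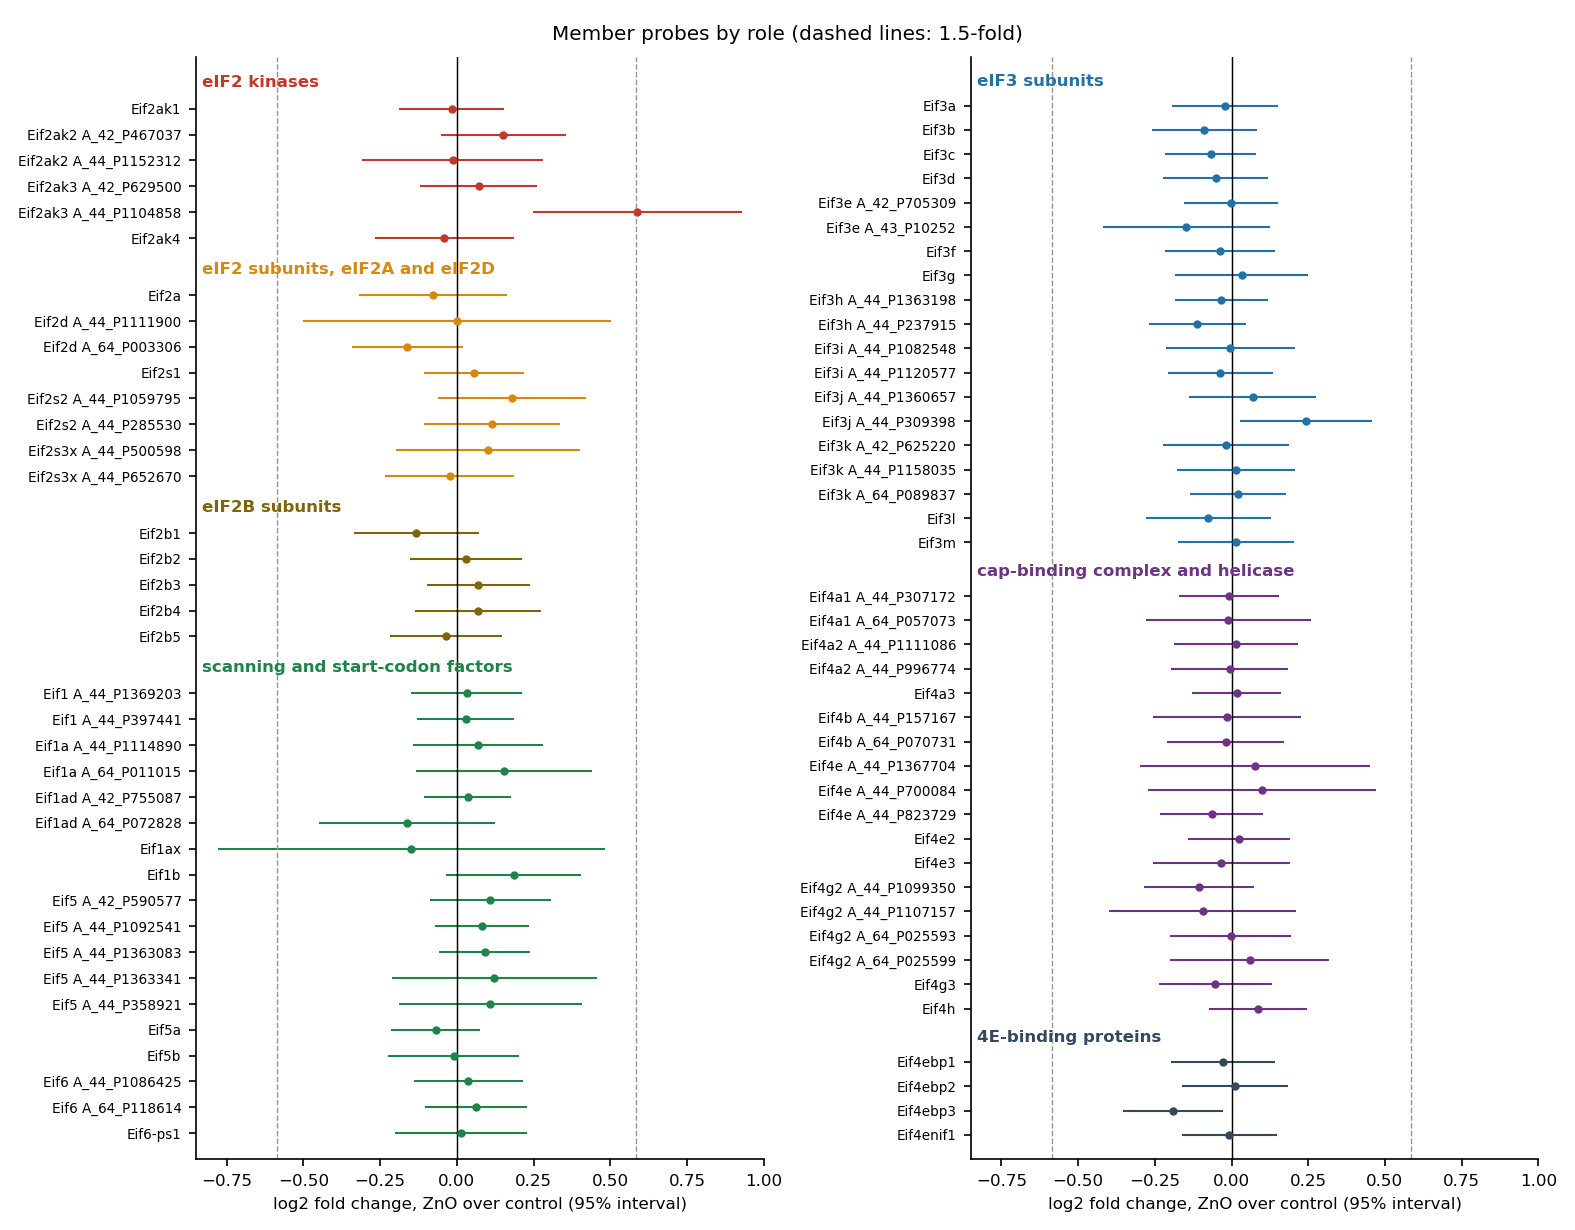
Log2 fold change of ZnO over control for each tested member probe, by role, with the 95% interval of limma as bars and a 1.5-fold change as dashed lines; a probe name follows the gene where a gene has several tested probes. The points lie between -0.19 and 0.59, and the intervals of 76 of the 78 probes stay inside the dashed lines.

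Genes of the zinc response were higher in the same exposed cells. Mt2A, a metallothionein that binds zinc, was at 2.36, 2.25 and 2.32 on the ZnO arrays, against -3.17, -3.69, -3.59 and -3.63 on the control arrays, on a log2 scale where the 75th percentile of an array's intensities is 0, the scale of every level given here. Its log2 fold change was 5.83 (standard error 0.13, 95% interval 5.53 to 6.13, adjusted p = 3.80e-06 from limma). Mt1a, a further metallothionein, rose by 3.40 on the log2 scale (adjusted p = 3.68e-05 from limma), and Slc30a1, a zinc exporter, rose by 1.37 (adjusted p = 0.00277 from limma). For each of these genes all ZnO arrays lay above all control arrays. In the plot of all tested probes the member probes sit in the narrow base of the cloud, far from these genes.

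**Figure D2:**
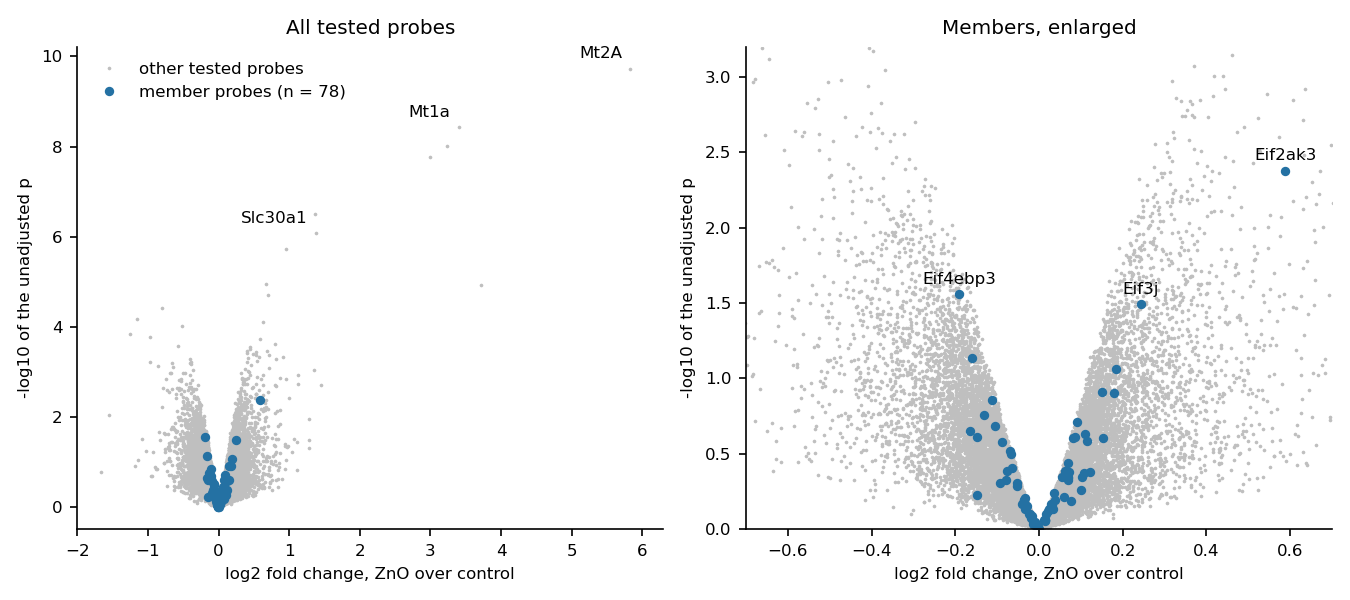
Log2 fold change of ZnO over control (horizontal) against -log10 of limma's unadjusted p (vertical), for all tested probes (left) and enlarged around the 78 member probes (right, in blue). Mt2A at 5.83 and Mt1a at 3.40 stand far to the right, and of the members the probes of Eif2ak3, Eif3j and Eif4ebp3 are the 3 at an unadjusted p under 0.05. The Eif2ak3 probe was tested only through the ZnO group, where it is high, so its point is a description.

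The eIF2 kinases each sense a different stress, and 6 of their 6 probes were tested. Of these 0 passed the test, and their log2 fold changes ran from -0.041 to 0.59, with a median of 0.029. Eif2ak1, the kinase that senses heme shortage, was at 0.74, 0.63 and 0.73 on the ZnO arrays, against 0.79, 0.74, 0.74 and 0.60 on the control arrays. The groups overlapped, and the log2 fold change was -0.017 (standard error 0.074, 95% interval -0.19 to 0.15, adjusted p = 0.999 from limma). Eif2ak4, which senses amino acid shortage through uncharged tRNA, was at -1.62, -1.66 and -1.67 on the ZnO arrays, against -1.56, -1.84, -1.47 and -1.56 on the control arrays. All ZnO arrays were within the span of the control arrays, control replicate 2 was the lowest of all, and the log2 fold change was -0.041 (standard error 0.097, 95% interval -0.27 to 0.19, adjusted p = 0.999 from limma). Eif2ak2, which senses double-stranded RNA, had levels of -1.83, -1.73 and -1.53 on the ZnO arrays, against -1.79, -1.90, -1.84 and -1.87 on the control arrays for probe A_42_P467037. ZnO replicates 2 and 3 were above every control array there and ZnO replicate 1 was not, with a log2 fold change of 0.15 (standard error 0.087, 95% interval -0.052 to 0.35, adjusted p = 0.908 from limma). On the other probe of Eif2ak2, A_44_P1152312, the levels were -3.48, -3.17 and -3.53 on the ZnO arrays, against -3.46, -3.16, -3.35 and -3.56 on the control arrays. This probe gave -0.013 (standard error 0.13, 95% interval -0.31 to 0.28, adjusted p = 0.999 from limma), with overlapping groups.

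Eif2ak3, the PERK kinase of the endoplasmic reticulum that is activated by unfolded proteins, had the highest fold change of any member, on 1 of its probes only. Probe A_44_P1104858, at chr4:104069547-104069606 of rn4, was at -4.58, -4.92 and -4.80 on the ZnO arrays, against -5.00, -5.47, -5.51 and -5.44 on the control arrays. All ZnO arrays were above all control arrays, control replicate 1 was closest to them, and the log2 fold change was 0.59 (95% interval 0.25 to 0.93). The probe is close to background: it was well above background on 3 of 3 ZnO arrays and 3 of 4 control arrays, and so was tested only through the ZnO group. Its fold change, in part against a control array at background, is therefore given as a description. The background-subtracted intensities were 40.9, 43.1 and 57.7 on the ZnO arrays, against 41.3, 33.6, 25.8 and 22.1 on the control arrays. On that scale, before the arrays are set to a common percentile, ZnO replicate 1 lay below control replicate 1. With normexp background correction the log2 fold change was 0.18 and 0.23 with the deposited table. The offset of 50 in normexp and the background kept in the deposited table both make fold changes of dim probes smaller. The other Eif2ak3 probe, A_42_P629500, at chr4:104078014-104078073, was at -1.24, -1.25 and -1.45 on the ZnO arrays, against -1.34, -1.39, -1.33 and -1.48 on the control arrays. It gave a log2 fold change of 0.071 (standard error 0.082, 95% interval -0.12 to 0.26, adjusted p = 0.981 from limma), with overlapping groups. The difference of 0.52 between both probes is the largest between probes of 1 gene among the 20 member genes with several tested probes.

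Heterotrimeric eIF2 carries the initiator tRNA, and 0 of the 5 tested probes of its subunits passed the test. Eif2s1, the α subunit that the kinases phosphorylate, was at 1.98, 2.14 and 2.14 on the ZnO arrays, against 2.01, 2.07, 2.00 and 2.04 on the control arrays. ZnO replicates 2 and 3 were above all control arrays and ZnO replicate 1 was below them, with a log2 fold change of 0.056 (standard error 0.070, 95% interval -0.11 to 0.22, adjusted p = 0.987 from limma). Eif2s2, the β subunit that contacts eIF5 and eIF2B, is read by the pair of probes printed above. Its probe A_44_P1059795 was at 2.29, 2.33 and 2.33 on the ZnO arrays, against 2.17, 2.21, 2.28 and 1.88 on the control arrays. All ZnO arrays lay above all control arrays, by a small margin over control replicate 3, and the log2 fold change was 0.18 (standard error 0.10, 95% interval -0.062 to 0.42, unadjusted p = 0.124 and adjusted p = 0.908 from limma). It was 0.094 without control replicate 4, the lowest array. On the other probe of Eif2s2, A_44_P285530, the levels were -1.46, -1.30 and -1.38 on the ZnO arrays, against -1.68, -1.51, -1.36 and -1.43 on the control arrays. The groups overlapped there, with 0.12 (standard error 0.095, 95% interval -0.11 to 0.34, adjusted p = 0.956 from limma).

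The γ subunit is encoded by Eif2s3x (Eif2s3 in the current rat annotation) and holds the tRNA and GTP. For Eif2s3x, probe A_44_P500598 was at -2.23, -2.58 and -2.65 on the ZnO arrays, against -2.56, -2.75, -2.39 and -2.66 on the control arrays. ZnO replicate 1 was the highest array, the other ZnO arrays lay among the control arrays, and the log2 fold change was 0.10 (standard error 0.13, 95% interval -0.20 to 0.40, adjusted p = 0.987 from limma). Probe A_44_P652670 of the same gene was at -3.09, -2.98 and -3.03 on the ZnO arrays, against -2.88, -2.96, -3.00 and -3.20 on the control arrays, with overlapping groups and -0.024 (standard error 0.090, 95% interval -0.23 to 0.19, adjusted p = 0.999 from limma). The levels of the kinases and subunits on every array are in the plot of single arrays.

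**Figure D3:**
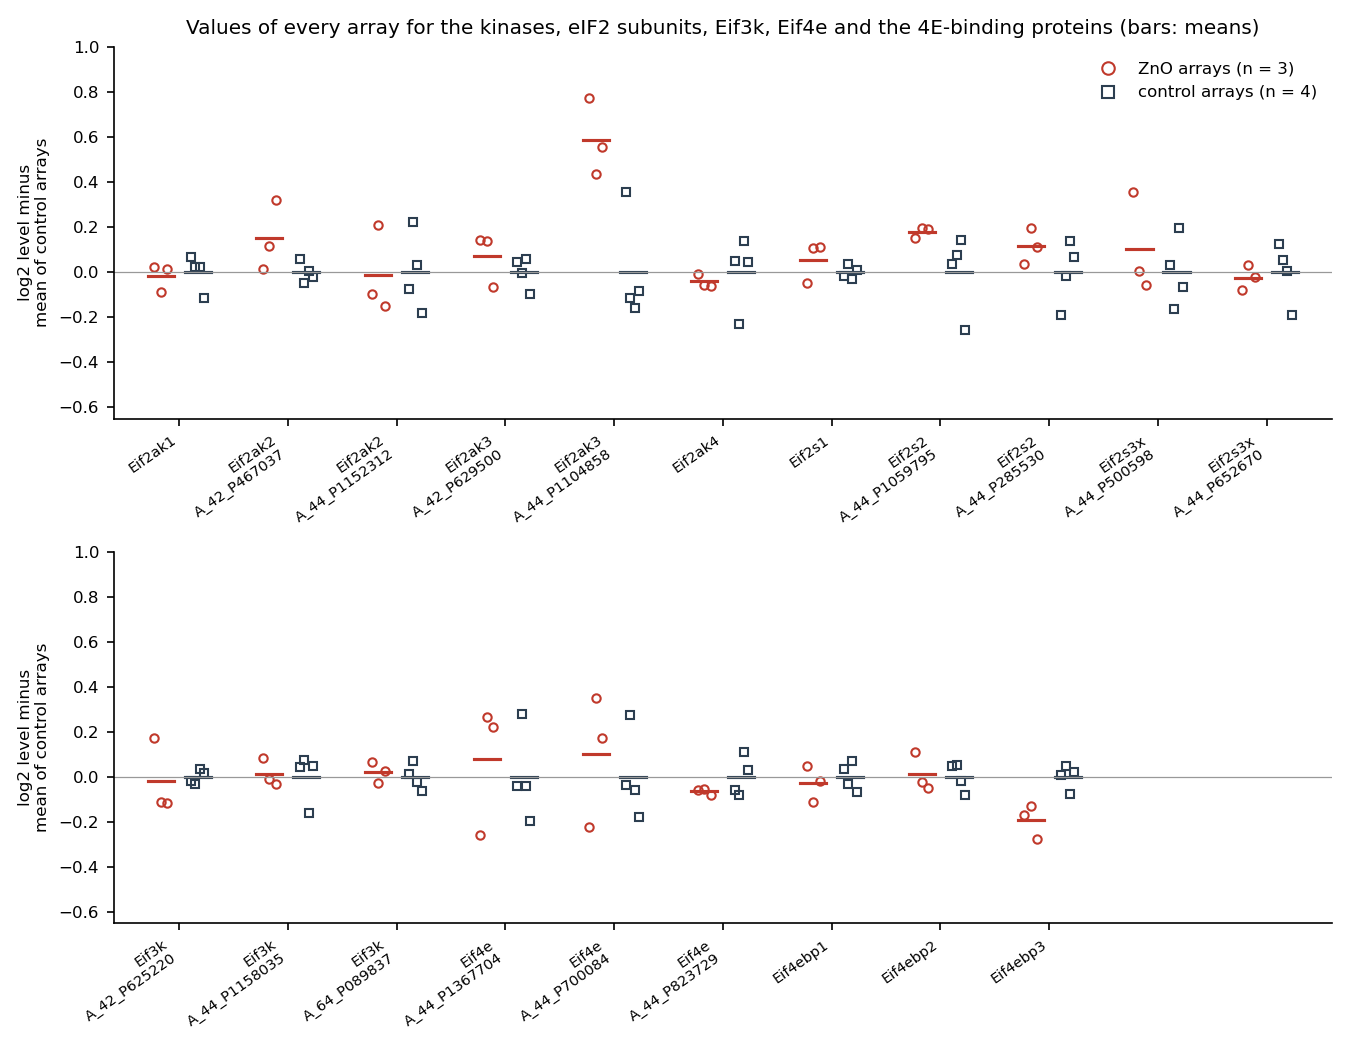
Log2 level of each array minus the mean of the 4 control arrays, for the tested probes of the eIF2 kinases, the eIF2 subunits, Eif3k, Eif4e and the 4E-binding proteins, with ZnO arrays as circles at the left, control arrays as squares at the right and bars at the group means. Only for Eif2ak3 probe A_44_P1104858, Eif2s2 probe A_44_P1059795 and Eif4ebp3 do the groups shown not overlap.

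Eif2a and Eif2d bind initiator tRNA outside the usual eIF2 route, and 0 of their 3 probes passed the test. Eif2d probe A_64_P003306 was at 1.77, 1.76 and 1.87 on the ZnO arrays, against 1.88, 2.02, 1.88 and 2.06 on the control arrays. Every ZnO array was below every control array, with ZnO replicate 3 next to control replicates 1 and 3, and the log2 fold change was -0.16 (standard error 0.077, 95% interval -0.34 to 0.019, unadjusted p = 0.073 and adjusted p = 0.867 from limma). The other Eif2d probe, near background, gave 0.00016 (95% interval -0.50 to 0.50), and Eif2a gave -0.079 (95% interval -0.32 to 0.16). All 5 subunits of eIF2B were tested with 1 probe each and 0 passed. Their log2 fold changes were -0.13 for Eif2b1, the subunit that senses phosphorylated eIF2, 0.029 for Eif2b2, 0.070 for Eif2b3, 0.069 for Eif2b4 and -0.036 for Eif2b5, the catalytic subunit. None of the intervals of eIF2B passed -0.34 or 0.27.

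Scanning and start-codon factors were grouped with Eif5b, Eif5a, Eif6 and the pseudogene Eif6-ps1, and tested with 18 probes of 10 genes. Of these 0 passed the test, and the median was 0.050. In this group 14 probes were above 0, beside 47.9% of all tested probes. Eif5 alone gave 5 of the 18 probes, all above 0. The count above 0 was 9 with centring on the median and 17 with centring on spike-in spots. Signs this close to 0 thus depend on the centring. Eif1, which keeps the ribosome scanning until the start codon is found, gave 0.032 and 0.029 on its probes. Its paralog Eif1b had the third highest fold change of the members, at -1.19, -1.16 and -1.14 on the ZnO arrays, against -1.45, -1.29, -1.49 and -1.16 on the control arrays. The ZnO arrays lay close together at the upper end of the control arrays, level with control replicate 4, and the log2 fold change was 0.18 (standard error 0.094, 95% interval -0.034 to 0.40, adjusted p = 0.884 from limma). Eif1a and Eif1ax encode eIF1A, which binds the decoding site beside eIF1. Eif1a gave 0.069 and 0.15 on its probes.

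Eif1ax had the widest interval of the members. It was at -1.43, -0.56 and -0.56 on the ZnO arrays, against -0.50, -0.28, -1.04 and -0.96 on the control arrays. ZnO replicate 1 was the lowest array and control replicate 2 the highest, both groups were widely spread, and the log2 fold change of -0.15 had a 95% interval of -0.78 to 0.48. Eif1ad, a protein with an eIF1A-like domain, was the second most discordant gene between probes. Its probe A_42_P755087 was at 1.498, 1.44 and 1.47 on the ZnO arrays, against 1.40, 1.44, 1.47 and 1.42 on the control arrays. With overlapping groups the log2 fold change was 0.036 (standard error 0.061, 95% interval -0.11 to 0.18, adjusted p = 0.999 from limma). Probe A_64_P072828, at chr1:208015696-208015755, was at -1.88, -1.53 and -1.52 on the ZnO arrays, against -1.58, -1.32, -1.39 and -1.63 on the control arrays. ZnO replicate 1 was the lowest array, ZnO replicates 2 and 3 lay among the control arrays, and the log2 fold change was -0.16 (standard error 0.12, 95% interval -0.45 to 0.12, adjusted p = 0.948 from limma).

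Eif5, which makes eIF2 hydrolyse its GTP at the start codon, had 5 tested probes with log2 fold changes between 0.082 and 0.12. Their spread rests on single arrays, since they lay between 0.0013 and 0.15 without control replicate 4. None of them passed the test, with adjusted p between 0.94 and 0.981 from limma. Eif5b, which joins the large subunit, gave -0.010 and Eif5a, which helps the ribosome through proline stretches, gave -0.069. Eif6, which keeps the ribosomal subunits apart, gave 0.037 and 0.062. The first of its probes (A_44_P1086425) has its rn4 position beside that of the pseudogene Eif6-ps1 (0.014), and which of these transcripts it reads was not tested.

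The eIF3 complex binds the small subunit and brings the mRNA to it, and all 13 of its subunits were measured, with 19 probes. Of these 0 passed the test and 6 were above 0, beside 47.9% of all tested probes. The count above 0 was 2 with centring on the median and 19 with centring on spike-in spots. The core subunits of eIF3 gave -0.021 (Eif3a), -0.088 (Eif3b) and -0.068 (Eif3c). Eif3d, which can bind the cap of some mRNAs, gave -0.052, and Eif3f, Eif3g, Eif3l and Eif3m gave -0.037, 0.033, -0.076 and 0.014. On a pair of probes each, Eif3i gave -0.0046 and -0.036 and Eif3e gave -0.0029 and -0.15. The rn4 positions of the Eif3i probes lie far apart on chr2, while GRCr8 places the gene on chr5. Which transcripts these probes read was not tested. Eif3h probe A_44_P237915 was at -1.41, -1.34 and -1.36 on the ZnO arrays, against -1.30, -1.32, -1.24 and -1.17 on the control arrays. Every ZnO array was below every control array, narrowly for ZnO replicate 2 beside control replicate 2, and the log2 fold change was -0.11 (standard error 0.068, 95% interval -0.27 to 0.046, unadjusted p = 0.139 and adjusted p = 0.918 from limma). The other Eif3h probe gave -0.033.

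Eif3k, a subunit at the edge of eIF3, was measured by 3 probes. The study names it, with the β subunit of eIF2 (Eif2s2), among initiation factors of altered gene expression. The dose and cutoffs that the study states differ from those here. Probe A_42_P625220, printed above, was at 1.32, 1.03 and 1.03 on the ZnO arrays, against 1.13, 1.11, 1.18 and 1.16 on the control arrays. ZnO replicate 1 was the highest array and the other ZnO arrays the lowest, with a log2 fold change of -0.018 (standard error 0.088, 95% interval -0.22 to 0.19, adjusted p = 0.999 from limma). Probe A_64_P089837, which has 10 spots on each array, was at 4.01, 3.92 and 3.97 on the ZnO arrays, against 3.96, 4.02, 3.93 and 3.88 on the control arrays, and its log2 fold change was 0.022 (standard error 0.067, 95% interval -0.13 to 0.18, adjusted p = 0.999 from limma). Probe A_44_P1158035 was at 4.28, 4.19 and 4.16 on the ZnO arrays, against 4.24, 4.27, 4.03 and 4.24 on the control arrays, with control replicate 3 the lowest array and a log2 fold change of 0.014 (standard error 0.082, 95% interval -0.18 to 0.21, adjusted p = 0.999 from limma). The groups overlapped on all 3 probes.

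Eif3j, a loosely attached subunit that lies in the mRNA channel, was the second highest member, on 1 of its probes. Probe A_44_P309398, at chr3:108837796-108837855, was at -2.08, -1.74 and -1.92 on the ZnO arrays, against -2.12, -2.18, -2.10 and -2.22 on the control arrays. All ZnO arrays were above all control arrays, with ZnO replicate 1 just above control replicate 3, and the log2 fold change was 0.24 (standard error 0.093, 95% interval 0.027 to 0.46, unadjusted p = 0.0322 and adjusted p = 0.822 from limma). It was 0.16 without ZnO replicate 2. The coding probe of Eif3j printed above, A_44_P1360657, was at -0.62, -0.34 and -0.44 on the ZnO arrays, against -0.49, -0.47, -0.54 and -0.63 on the control arrays. Here ZnO replicate 1 lay among the control arrays and the log2 fold change was 0.069 (standard error 0.088, 95% interval -0.14 to 0.27, adjusted p = 0.987 from limma).

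The cap-binding complex and its helicase were tested with 18 probes of 10 genes, with log2 fold changes between -0.11 and 0.10. Of these probes 0 passed the test and 7 were above 0, beside 47.9% of all tested probes. The count above 0 was 4 with centring on the median and 18 with centring on spike-in spots. Eif4e, the cap-binding protein itself, was measured by 3 probes. Probe A_44_P700084 was at -2.38, -1.80 and -1.98 on the ZnO arrays, against -2.19, -1.88, -2.21 and -2.33 on the control arrays. Probe A_44_P1367704 was at -2.88, -2.36 and -2.41 on the ZnO arrays, against -2.66, -2.35, -2.67 and -2.82 on the control arrays. On both, ZnO replicate 1 was the lowest of all arrays and ZnO replicate 2 or control replicate 2 the highest, and the log2 fold changes were 0.10 (standard error 0.16, 95% interval -0.27 to 0.47, adjusted p = 0.999 from limma) and 0.076 (95% interval -0.30 to 0.45). These values rest on single arrays. Without ZnO replicate 1 they were 0.26 and 0.24, and without ZnO replicate 2 they were -0.025 and -0.018. Probe A_44_P823729 was at -4.48, -4.47 and -4.50 on the ZnO arrays, against -4.48, -4.50, -4.31 and -4.39 on the control arrays, and its log2 fold change was -0.065 (standard error 0.072, 95% interval -0.23 to 0.10, adjusted p = 0.978 from limma). This dim probe had background-subtracted intensities of 44.0 to 70.8 on the ZnO arrays and 45.7 to 65.9 on the control arrays. The relatives Eif4e2, which competes for the cap, and Eif4e3 gave 0.025 and -0.034.

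The helicases Eif4a1 and Eif4a2, which unwind the start of the mRNA, gave -0.0091 and -0.0099, and 0.015 and -0.0065. Eif4a3, which marks exon junctions, gave 0.016. Their helpers Eif4b and Eif4h gave -0.015 and -0.019, and 0.087. Of the scaffolds, Eif4g3 gave -0.053 and Eif4g2, which lacks the site for eIF4E, gave -0.11, -0.094, -0.0028 and 0.059 on its 4 tested probes.

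The 4E-binding proteins close the cap to eIF4G, and 0 of the 4 probes of this group, which also holds Eif4enif1, passed the test. Eif4ebp3 had the lowest fold change of the members. It was at -1.33, -1.29 and -1.44 on the ZnO arrays, against -1.15, -1.11, -1.23 and -1.14 on the control arrays. Every ZnO array was below every control array, with ZnO replicate 2 nearest to control replicate 3, and the log2 fold change was -0.19 (standard error 0.070, 95% interval -0.35 to -0.027, unadjusted p = 0.0277 and adjusted p = 0.808 from limma). Eif4ebp1, the best-studied target of mTOR, was at 3.49, 3.33 and 3.42 on the ZnO arrays, against 3.47, 3.41, 3.51 and 3.37 on the control arrays. The groups overlapped and the log2 fold change was -0.028 (standard error 0.073, 95% interval -0.20 to 0.14, adjusted p = 0.999 from limma). Eif4ebp2 was at 0.16, 0.026 and -0.0035 on the ZnO arrays, against 0.096, 0.10, 0.028 and -0.036 on the control arrays, again with overlapping groups and a log2 fold change of 0.012 (standard error 0.074, 95% interval -0.16 to 0.18, adjusted p = 0.999 from limma). Eif4enif1, which carries eIF4E into the nucleus, gave -0.0068.

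In all, the ZnO arrays lay wholly on 1 side of the control arrays for 6 member probes. They were above for 3 (3.85% of the members) and below for 3 (3.85%), beside 761 (3.8%) and 719 (3.59%) of all probes tested. Over the probes above background on all arrays, which leave out that of Eif2ak3, they were above for 2 members (2.6%) and below for 3 (3.9%), beside 3.7% and 3.6% of all such probes. The probes above were those of Eif2ak3, Eif3j and Eif2s2 and those below were those of Eif4ebp3, Eif2d and Eif3h. Of these 6 genes, Eif2ak3, Eif3j, Eif2s2, Eif2d and Eif3h have a second tested probe whose groups overlapped. The plot of settings follows the 3 probes at an unadjusted p under 0.05 over the processing.

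**Figure D4:**
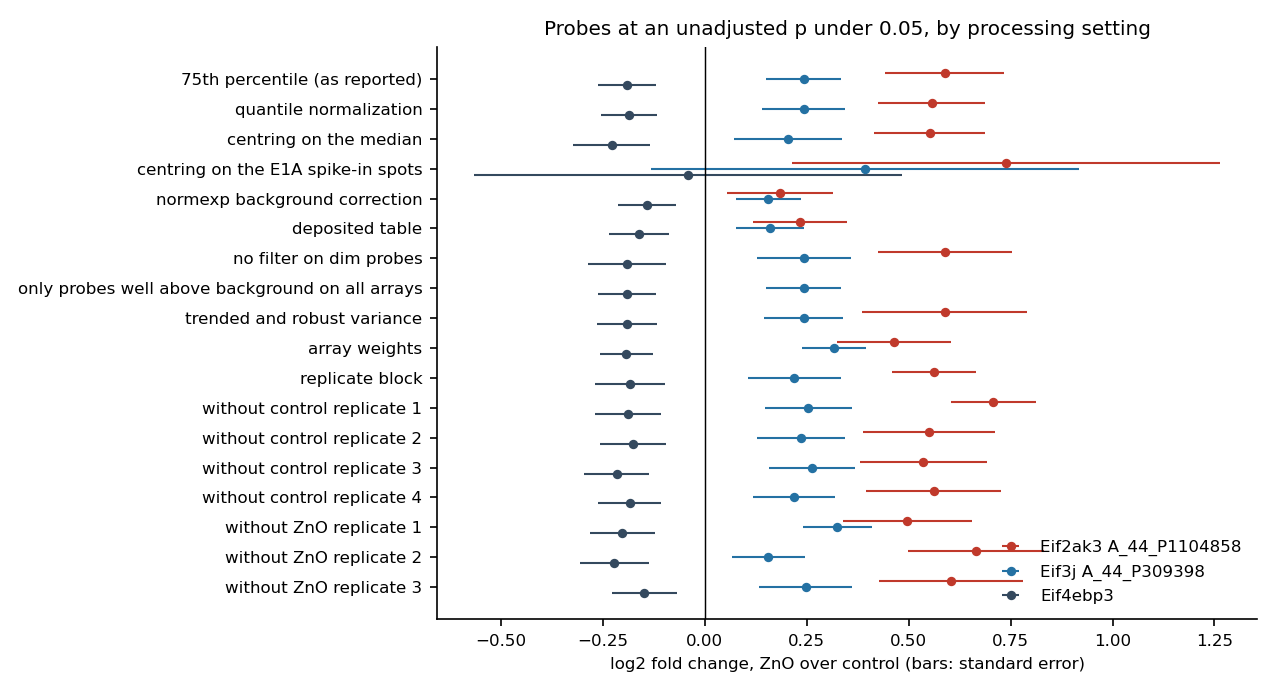
Log2 fold change of ZnO over control (horizontal, with the standard error as bars) of Eif2ak3 probe A_44_P1104858, Eif3j probe A_44_P309398 and Eif4ebp3 under each processing setting (rows); the first row is the value as reported. Eif2ak3 drops to 0.18 with normexp background correction and has no value where probes had to be above background on all arrays. Its probe was tested only through the ZnO group, so its values are a description. The offset of 50 in normexp makes the fold changes of dim probes smaller.

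Members repeated on the array gave a view of the technical error. Of the member probes, 18 were printed on 10 spots of each array, and the SD between spots of 1 array, as a median over the arrays, was 0.030 to 0.087 on the log2 scale (median 0.056). Array values average those spots, so their own spot error is smaller than the SD between single spots. The SD between arrays of the same probes had a median of 0.055 over the ZnO arrays and 0.063 over the control arrays. The log2 fold changes of these probes lay between -0.069 and 0.18. Among the genes with several tested probes, fold changes of probes of 1 gene differed by a median of 0.082 (0.00076 to 0.52), and in 12 of 20 genes all probes had the same sign. Single arrays stood apart on a few probes. ZnO replicate 1 lay over 0.3 below the mean of the other ZnO arrays for 8 member probes (of Eif1a, Eif1ad, Eif1ax, Eif4a1, Eif4e and Eif4g2), against 0 for ZnO replicates 2 and 3 and 1, 2, 1 and 4 for control replicates 1, 2, 3 and 4 set against the other control arrays. Gaps of over 0.3 above the other arrays of the group were 2, 3 and 1 for ZnO replicates 1, 2 and 3, against 2, 3, 0 and 0 for control replicates 1, 2, 3 and 4. The 75th percentile of intensity was 980, 1304 and 1603 on the ZnO arrays, against 1317, 1489, 1179 and 958 on the control arrays, and the part of this brightness in those gaps was not tested. All 7 arrays lay on 1 slide scanned once, with ZnO and control arrays in separate rows, so the effect of the row and that of the exposure cannot be told apart.

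Promoter sequence was compared with the zinc response, since metallothionein genes are switched on through metal response elements, the sites of the zinc-sensing factor Mtf1. The core TGCACNC or TGCGCNC was searched on both strands in the 250 bases before the start of each gene (RefSeq, GRCr8), where overlapping matches on opposite strands each count. It was found in 19 of the 47 member promoters on hand (40.4%) and in 21.2% of all 27457 promoters, and the member promoters had a median GC content of 59.6%, against 52.0% for all promoters. Members with a core in the promoter had a median log2 fold change of 0.011 (18 genes with a tested probe, mean of the gene's probes) and members without one of 0.0043 (27 genes). The C/EBP-ATF element TGATGNAA, of the kind bound by Atf4, was in 2 member promoters (4.26%, against 3.27% of all promoters), those of Eif2s2 and Eif3g, and the palindrome TGACGTCA in 0 (1.70% of all). Below, the promoters of Eif1 and Eif2s2, members with the core, are set beside that of Mt2A, the gene with the highest rise, 5′ to 3′ with the cores in capitals and the gene's start just after the last base.
Eif1 at chr10:85746887-85747136, plus strand: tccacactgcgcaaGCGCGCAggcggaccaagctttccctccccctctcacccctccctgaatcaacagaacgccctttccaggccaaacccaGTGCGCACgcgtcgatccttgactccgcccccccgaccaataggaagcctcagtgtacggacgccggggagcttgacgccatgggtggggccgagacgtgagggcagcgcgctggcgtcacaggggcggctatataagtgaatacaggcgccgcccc
Eif2s2 at chr3:163855571-163855820, minus strand: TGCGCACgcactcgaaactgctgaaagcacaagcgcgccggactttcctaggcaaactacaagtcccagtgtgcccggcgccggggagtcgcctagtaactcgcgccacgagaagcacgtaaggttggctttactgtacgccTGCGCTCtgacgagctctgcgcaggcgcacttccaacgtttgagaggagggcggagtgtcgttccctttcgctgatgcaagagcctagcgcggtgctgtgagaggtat
Mt2A at chr19:10838709-10838958, minus strand: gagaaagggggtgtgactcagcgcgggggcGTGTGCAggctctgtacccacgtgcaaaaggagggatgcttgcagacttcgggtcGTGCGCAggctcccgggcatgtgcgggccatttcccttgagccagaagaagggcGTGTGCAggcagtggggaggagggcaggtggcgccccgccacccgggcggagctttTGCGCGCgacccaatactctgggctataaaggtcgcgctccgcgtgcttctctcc
Eif1 holds 3 such cores, Eif2s2 holds 2 and Mt2A holds 4. The log2 fold changes were 0.032 and 0.029 for Eif1, 0.18 and 0.12 for Eif2s2 and 5.83 for Mt2A. A match of these letters is a description and not a site shown to be bound.

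Other genes of the pathway were read from 4 lists, with the brightest tested probe of each gene. At an adjusted p under 0.05, 0 were higher and 0 lower among 11 partners of eIF2 signalling, 12 of cap-dependent initiation, 6 of pre-initiation and recycling, and 9 elongation and termination factors. Of all 20050 probes, 10 were higher (0.0499%) and 0 lower. Median log2 fold changes were -0.015, -0.037, 0.093 and -0.034 for these lists. At an unadjusted p under 0.05 there was 1 of 38, beside 1188 of all 20050 probes (5.93%). It was Impact, an inhibitor of Gcn2 activation, at 0.48, 0.72 and 0.69 on the ZnO arrays, against 0.35, 0.33, 0.20 and 0.58 on the control arrays. ZnO replicate 1 lay below control replicate 4, and the log2 fold change was 0.27 (standard error 0.11, 95% interval 0.018 to 0.52, unadjusted p = 0.0386 and adjusted p = 0.825 from limma). Atf4, the transcription factor made when eIF2 is phosphorylated, was at 3.64, 3.77 and 3.86 on the ZnO arrays, against 3.71, 3.59, 3.70 and 3.54 on the control arrays. Its groups overlapped, with 0.12 (standard error 0.084, 95% interval -0.075 to 0.31, adjusted p = 0.94 from limma). Ddit3, a target of Atf4 also called Chop, was at 1.77, 1.68 and 1.60 on the ZnO arrays, against 1.42, 1.35, 1.62 and 1.56 on the control arrays. Here ZnO replicates 1 and 2 were above every control array and ZnO replicate 3 was not, with 0.19 (standard error 0.090, 95% interval -0.017 to 0.40, adjusted p = 0.867 from limma). Ppp1r15a, the phosphatase subunit that reverses the phosphorylation of eIF2, gave -0.015 (95% interval -0.19 to 0.16). The elongation factors Eef1a1 and Eef2 gave -0.034 (95% interval -0.22 to 0.16) and -0.20 (95% interval -0.42 to 0.027).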

How the data were processed

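The members, lists and tests were chosen with earlier results of these data known. Scanner images of the 7 arrays were read by the authors in Agilent Feature Extraction 11.0.1.1. The deposited intensity of each spot has its background subtracted and trends across the array removed. Percentile normalization in GeneSpring by the authors followed, with the percentile and the test not given in the sources used here. The table of all arrays that the authors deposited as normalized equals the scanner's median intensity of every spot (100% on each array), served as an alternative and had 0 value columns of no sample.

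Log2 intensities were centred on the 75th percentile of the array's 58717 non-control spots, outlier-marked spots were left out and spots of a probe averaged. A probe counted as well above background on an array when more of its spots were than were not. The share of spots above background was 52.9% to 54.3% on the ZnO arrays, against 51.7% to 56.0% on the control arrays. The groups were tested in R 4.3.3 with lmFit and eBayes of limma 3.58.1 (two-sided), and p-values were adjusted by Benjamini-Hochberg over all 20050 tested probes. Errors and 95% intervals come from the same fit. The fit was tested on simulated data with known fold changes, and the share of these changes that it called is not reported here. The labels number the arrays of a group as replicates. The study's methods call replicates biological and planned more of them for each NP than the 3 ZnO arrays here. The number of arrays limits the precision. Named were all member genes with a tested probe, with array values for the eIF2 kinases and subunits, Eif3k, Eif4e and the 4E-binding proteins, the 3 highest and 3 lowest probes, those at an unadjusted p under 0.05 or with no overlap, and the 2 genes whose probes differed most. The array values of Eif1ax and of the second Eif3j probe were added after they were seen. Neither the labels nor the study's methods state that replicate numbers pair the arrays, and the main fit did not pair them. Alternatives were quantile, median and spike-in centring (350 spots), normexp (offset 50), the deposited table, other filters, variance models, array weights, a replicate block, 1 value for each gene and each array left out. Tables and plots were made with pandas 2.3.3, numpy 2.4.6, matplotlib 3.10.9 and version 1.17.8 of data.table.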

Additional observations from a re-analysis of the deposited data

Results flagged for a closer look

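In 5 of 88 sets of 4 control values checked, 1 array stood far from the other 3, where chance alone gives about 1 in 20, and the ZnO groups of 3 were too small for this check. For Eif2ak3 probe A_44_P1104858 control replicate 1 was the highest array, with a gap of 0.851 of the range of the control arrays. For Eif3h probe A_44_P1363198 control replicate 1 was the lowest (0.873 of the range). Control replicate 3 was the lowest for Eif3k probe A_44_P1158035 (0.856) and for Eif4enif1 (0.870), and the highest for Eif5 probe A_44_P1092541 (0.871). Apart from Eif2ak3, at 0.52, the whole range of the control arrays was at most 0.24 on the log2 scale for these probes.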

How the results depend on the processing

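The count of member probes past the test was 0 under every alternative run, as was that of the other genes of the pathway. The count of members at an unadjusted p under 0.05, 3 as reported, was 0 with spike-in centring, the deposited table or normexp, 1 where dim probes were kept, 5 with array weights, 2 with 1 value for each gene, and 1 to 5 with single arrays left out. The members' median, -0.0013 as reported, was -0.039 with centring on the median and 0.15 with spike-in centring, and -0.00076 to 0.023 with single arrays left out. The count of all probes past the test, 10 as reported, was 5 with spike-in centring, 5 with no filter and 7 to 14 with single arrays left out. The lower calls were 1 with quantile normalization or median centring, 2 with array weights and 4 with a trended, robust variance. The sign of 36 of the 78 member probes turned with spike-in centring, of 15 with median centring and of 20 without ZnO replicate 1, none of them past the test in any setting. Spike-in and median centring each shift the fold changes of all probes by the same amount, so only small fold changes turned sign there. The cause of the turns without ZnO replicate 1 was not tested. With the replicate number as a block, 4 of all probes and 0 of the members passed, with 1 member at an unadjusted p under 0.05. Same-numbered arrays correlated at -0.092, 0.21 and -0.23 in their deviations. These are too few values to tell whether the samples were paired. The dim Eif2ak3 probe had no value where probes had to be above background on all arrays, and a slide block could not be fitted, since all arrays shared 1 slide.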
